A study of Mus musculus with 6 samples.

Results

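A set of 6 genes whose transcripts were strongly lowered by NUP-17d in cultured mouse erythroblasts was described gene by gene, namely Apol11b, Prokr1, Cachd1, Rab30, Evi5 and Zfp874a. The 6 genes were chosen by the log2 fold change of their composition-corrected counts in this very contrast, out of 17060 genes with reads in any culture, and all 6 were found in all 6 cultures and passed the filter on low counts. Their fall is therefore given as a description with no test. They were not the 6 largest falls of the 12306 genes tested: Prokr1 ranked 13, Cachd1 16, Rab30 21, Apol11b 23, Zfp874a 69 and Evi5 75. As a group they were labelled receptors and trafficking genes, which by known function holds for Prokr1, a G protein–coupled receptor, and for Rab30 and Evi5, which act in membrane trafficking. Cachd1 encodes a membrane protein related to calcium channel subunits, Apol11b belongs to the apolipoprotein L family, and Zfp874a encodes a zinc finger protein of the nucleus.

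The cells were lineage-negative bone marrow cells from wild-type mice, grown in medium with erythropoietin (EPO), in which they proliferate and mature along the erythroid line. For 48 hours they received either DMSO, the solvent control, or NUP-17d, a small molecule that was developed to bind Plek2, a protein of the erythroblast membrane and actin skeleton. There were 3 cultures per group, the wild-type background and the EPO medium being common to both. The labels do not say whether the cultures came from separate mice, so all p-values measure the spread between these cultures.

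A maturing erythroblast fills with hemoglobin, sheds membrane receptors through endosomes and vesicles, and finally expels its nucleus. Small GTPases of the Rab family mark the membranes that carry this traffic, and proteins with a TBC domain, such as Evi5, turn Rab proteins off. G protein–coupled receptors such as Prokr1 signal at the cell surface through G proteins, phospholipase C and calcium. Zinc finger proteins with a KRAB domain bind DNA and recruit the corepressor Trim28. None of the 6 genes is a standard marker of the erythroid lineage.

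The libraries held 20076409 to 20419018 expected counts, the authors' estimated reads per gene. Erythroid transcripts were the most abundant of the marker lists. All 20 erythroid markers were read in both groups, and their summed level was 226930 to 261465 CPM (counts scaled to the size of each library) in DMSO and 125893 to 140526 CPM with NUP-17d. Much of that sum came from globin genes, such as Hba-a1 and Hbb-bs with DMSO means of 76359 and 77814 CPM. All 20 were called lower with NUP-17d by edgeR at an adjusted p under 0.05, against 18.9% of all tested genes. Their log2 fold changes had a median of -0.70, against 0.01 for all tested genes. Summed markers of other lineages moved less: neutrophil markers were at 3953 to 4122 CPM in DMSO and 4032 to 4311 CPM with NUP-17d, and macrophage markers at 632 to 690 and 681 to 751 CPM. The neutrophil markers Mpo and Ngp had DMSO means of 1756 and 683 CPM, above those of the erythroid factors Gata1 (248 CPM) and Klf1 (222 CPM). Myeloid RNA was thus present too, and the share of erythroid cells was not measured. Megakaryocyte markers were at 449 to 496 and 519 to 539 CPM, stem and progenitor markers at 463 to 467 and 483 to 503 CPM, mast cell and basophil markers at 209 to 226 and 186 to 192 CPM, and lymphoid markers at 28.4 to 31.7 and 25.9 to 26.7 CPM. By edgeR, 5 of 7 tested megakaryocyte and 3 of 8 stem and progenitor markers were called higher and 0 lower. Lower and higher were 1 and 2 of 11 neutrophil, 3 and 2 of 9 macrophage, 2 and 1 of 5 mast cell and basophil, and 2 and 0 of 6 lymphoid markers. Of all tested genes, 18.9% were called lower and 16.4% higher. Within the last 2 lists, Cma1 and Tpsb2 (mast cells) and Cd3e and Cd3g (T cells) had means of 0.47 CPM or less in both groups, but others were read: the DMSO and NUP-17d means were 47.0 and 51.3 CPM for Cpa3, 57.0 and 43.5 CPM for Mcpt8, 17.8 and 17.4 CPM for Ms4a2, and 14.5 and 12.8 CPM for Nkg7. The largest fall in the lymphoid list was that of Ms4a1 (-1.66 ± 0.31), from 23 to 28 counts in DMSO to 6 to 14 with NUP-17d. The part of the shift in erythroid markers in the fall of the 6 genes was not tested, and in these bulk libraries fewer cells of a type and less RNA per cell cannot be told apart. Plek2 itself had a log2 fold change of -0.40 ± 0.048 (SE; adjusted p = 1.78e-07, quasi-likelihood test of edgeR, Benjamini-Hochberg).

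Levels below are CPM after trimmed mean of M values (TMM) scaling, which corrects for the composition of each library. That correction mattered here, because the libraries with NUP-17d had TMM factors of 1.08 to 1.11 and the DMSO libraries of 0.887 to 0.930. On library totals alone the median log2 fold change of all tested genes was 0.28, against 0.01 after TMM. Across the 12306 tested genes, edgeR called 18.9% lower and 16.4% higher at an adjusted p under 0.05, and 23.2% had all 3 NUP-17d cultures below all 3 DMSO cultures. All 6 genes had such nonoverlapping groups, which the choice of the genes fixed.

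Apol11b was by far the most abundant of the 6. Apolipoprotein L proteins are small lipid-binding proteins, many of them induced by interferon, and the mouse genes lie side by side in 1 cluster. Apol11b stands at chr15:77633951-77643286 (GRCm38). Its level was 701, 668 and 721 CPM in the DMSO cultures and 246, 243 and 259 CPM in the NUP-17d cultures. The 2 groups were far apart, and the cultures of each lay within 3.84% (SD) of their mean. The log2 fold change was -1.48 ± 0.038 (SE), so that 35.8% of the DMSO level was left.

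**Figure D1:**
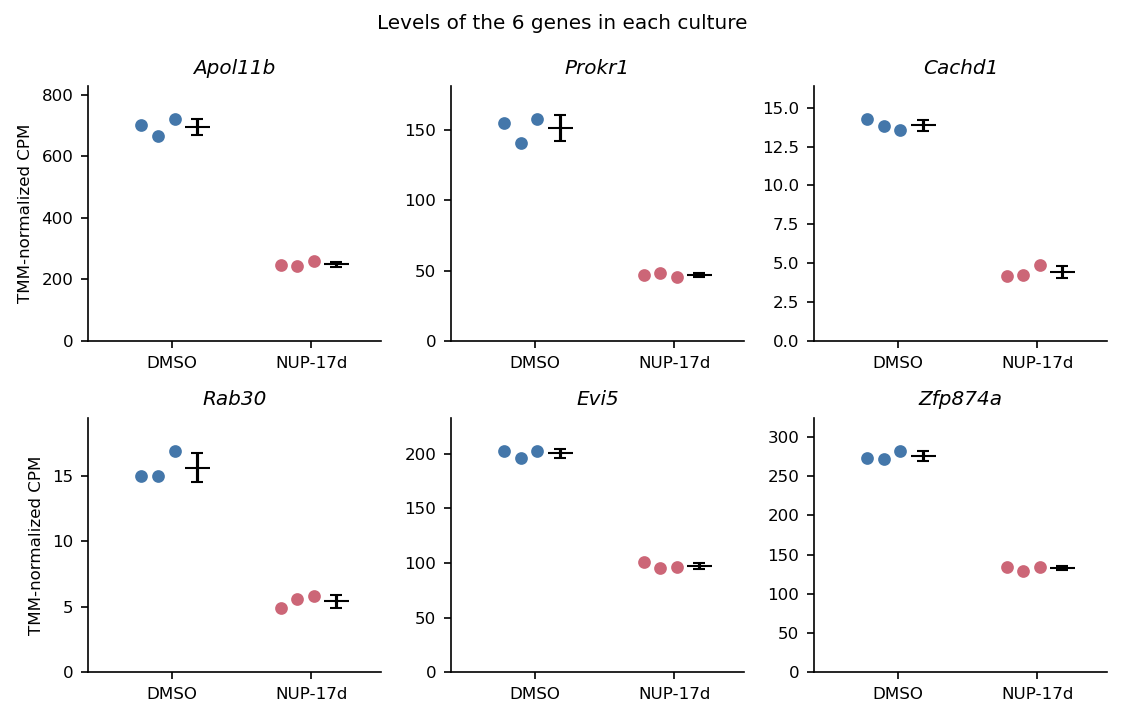
TMM-normalized CPM (y axis, from 0 and different for each gene) of the 6 genes in 3 DMSO cultures (blue) and 3 NUP-17d cultures (red), 1 point per culture, with the group mean ± SD in black. The groups do not overlap for any of the genes, and the spread within groups is small beside the gap, from 1.90% of the mean (Zfp874a, NUP-17d) to 9.10% (Cachd1, NUP-17d).

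The neighbors of Apol11b in the cluster were also lower. Of the 12 other Apol genes listed, 8 had enough reads to be tested, 6 were called lower and 0 higher by edgeR, and their median log2 fold change was -1.34, against 0.01 for all tested genes and a background of 18.9% called lower. None was higher at an unadjusted p under 0.05 (0 genes) or by DESeq2 (0 genes), and DESeq2 also called 6 lower; the count was 6 or 7 under all alternatives run. Apol8 went from 72.2, 65.7 and 69.0 CPM in DMSO to 28.5, 27.0 and 28.3 CPM, a log2 fold change of -1.30 ± 0.048 (SE). Apol10a went from 41.4, 34.1 and 35.4 CPM to 14.2, 12.5 and 13.4 CPM (-1.47 ± 0.072). In each of these genes every NUP-17d culture was below every DMSO culture. Apol11a, the closest relative of Apol11b, went from 30.3, 30.6 and 32.0 CPM to 14.2, 11.97 and 13.8 CPM (-1.22 ± 0.065). Apol7c fell by 1.05 ± 0.097 on the log2 scale, Apol10b by 1.37 ± 0.17 and Apol7a, with a mean of only 14.4 counts, by 1.52 ± 0.36. The adjusted p of these genes ran from 3.58e-17 (Apol8) to 0.0015 (Apol7a) by the quasi-likelihood test of edgeR, after Benjamini-Hochberg adjustment.

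Apol7b and Apol7e did not pass the test. Apol7b was at 2.71, 2.003 and 2.20 CPM in DMSO and 1.72, 2.11 and 2.43 CPM with NUP-17d, so its groups overlapped. Apol7e was listed at 0 in 1 DMSO and 2 NUP-17d cultures and had 30 and 28.3 counts in the other DMSO cultures and 18.9 in the remaining one with NUP-17d. These 2 genes are near copies: 73.4% of the 50-base windows of the Apol7b transcript also occur in Apol7e, and 50 bases is the read length, so the counts of each are uncertain. Apol6, Apol9a and Apol9b had too few reads for the test.

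**Figure D2:**
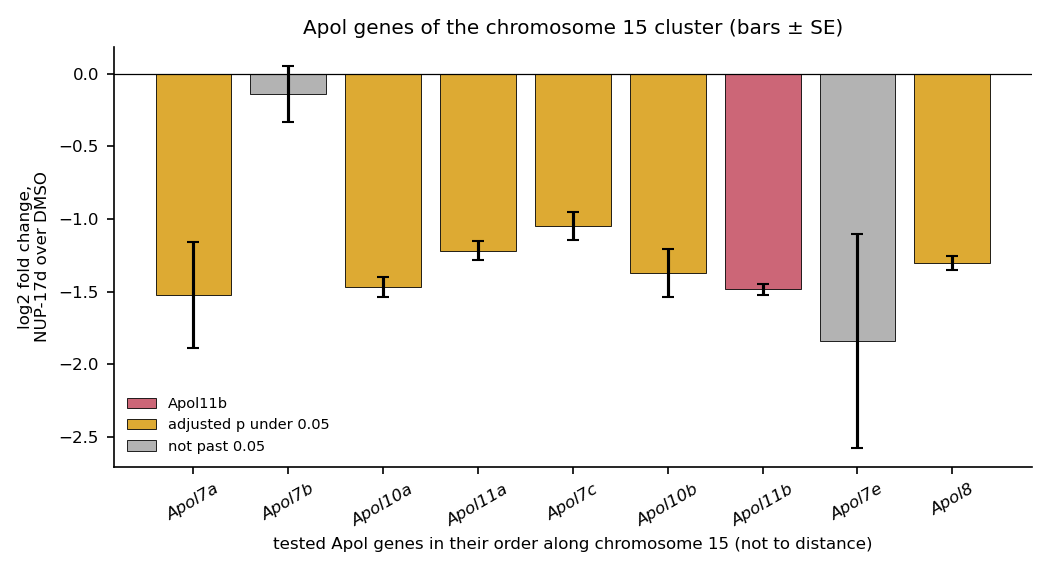
Log2 fold change (NUP-17d over DMSO, y axis) of the 9 tested Apol genes, placed in their order along chromosome 15 with equal spacing. Bars show edgeR's estimate with its SE; Apol11b is red, genes with an adjusted p under 0.05 are yellow, and Apol7b and Apol7e, which did not pass, are gray. All but Apol7b lie at -1.05 or lower.

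Some reads cannot be assigned to 1 Apol gene. Of the 50-base windows of the Apol11b transcript, 19.2% occur in another gene's transcript too, mostly in Apol11a (13.8%) and Apol10a (7.25%). The expected counts of Apol11b, Apol11a and Apol10a were not whole in any culture, as when a read is divided between genes. Apol8 shared no window with another gene and had whole counts in all 6 cultures, and its log2 fold change was -1.30 ± 0.048 (SE). The part of divided reads in the falls of the other Apol genes was not tested. All 5 tested genes on the lower-coordinate side of Apol11b and the first 2 on the other side were Apol genes. The next gene beyond them, Myh9, which encodes a nonmuscle myosin, had a log2 fold change of 0.11 (adjusted p = 0.018, quasi-likelihood test of edgeR, Benjamini-Hochberg).

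The sequences before the start of these genes are shown because Apol11b shares most of its upstream DNA with some of the copies that fell and not with others. The 250 bases before the RefSeq start (GRCm38.p6) of Apol11b and of Apol11a were 100% identical, and 86.9% of the alignment with Apol10a was identical, whereas identity with Apol11b was 49.2% for Apol7c, 46.8% for Apol8, 44.9% for Apol7a and 44.4% for Apol10b, all of which also fell. Below, Apol11b is chr15:77643287-77643536 on the minus strand, Apol10a chr15:77476797-77477046 on the plus strand and Apol7c chr15:77533316-77533565 on the minus strand. The RefSeq start used was not always the outer end of the gene span. The Apol10b stretch lies wholly inside its gene, and those of Apol11a, Apol10a, Apol7c and Apol8 lie partly inside. Capitals mark TGATAA, which GATA factors recognize, and a pair of GAAA blocks with 2 bases between them, as in interferon response elements. Matches on the other strand read TTATCA, or TTTC blocks. The motifs do not overlap each other in these sequences, and in Apol7c 2 matches of the second one overlap.
Apol11b: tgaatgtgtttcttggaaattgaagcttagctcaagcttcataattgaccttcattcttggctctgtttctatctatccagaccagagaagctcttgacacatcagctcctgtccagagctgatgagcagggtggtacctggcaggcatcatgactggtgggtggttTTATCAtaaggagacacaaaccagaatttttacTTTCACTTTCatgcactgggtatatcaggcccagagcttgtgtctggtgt
Apol10a: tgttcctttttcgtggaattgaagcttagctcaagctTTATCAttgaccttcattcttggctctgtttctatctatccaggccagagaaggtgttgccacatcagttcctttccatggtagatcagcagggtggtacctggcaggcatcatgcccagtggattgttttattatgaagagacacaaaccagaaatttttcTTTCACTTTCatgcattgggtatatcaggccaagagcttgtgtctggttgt
Apol7c: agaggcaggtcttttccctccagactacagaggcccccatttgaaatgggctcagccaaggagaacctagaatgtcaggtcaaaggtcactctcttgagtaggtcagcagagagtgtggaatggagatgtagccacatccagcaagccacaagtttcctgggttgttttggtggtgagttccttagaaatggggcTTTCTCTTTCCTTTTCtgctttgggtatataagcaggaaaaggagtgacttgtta

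In windows from 250 bases before to 50 after the start, the paired GAAA blocks were found in 6 of the 8 Apol genes with a RefSeq promoter entry (Apol11b, Apol11a, Apol10a, Apol10b, Apol7c and Apol7e) and in 3.44% of all 32851 windows. TGATAA was found in Apol11b, Apol11a, Apol10a and Apol10b, and in 9.05% of all windows, and the STAT-type sequence TTCNNNGAA in Apol11b, Apol11a and Apol10a, and in 8.30% of all windows. These genes are copies of each other, so their matches are not independent. The windows of Apol10b and Apol7e lie inside their gene spans. Apol8, which was lowered as well, and Apol7a had none of the 3 sequences in this window. A match describes the letters only and says nothing on which factor was bound.

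Zfp874a is the other member with a near copy next to it. It stands at chr13:67440431-67451624 (GRCm38) in a stretch of KRAB zinc finger genes, a class known for repressing transposons and other genes. Its level was 273, 271 and 282 CPM in DMSO and 134, 129 and 134 CPM with NUP-17d, which is a log2 fold change of -1.06 ± 0.035 (SE). The SD was 2.14% of the mean in DMSO and 1.90% with NUP-17d, and the groups did not overlap. Zfp874b, 19.9 kb further on (chr13:67471513-67486241), went from 106, 102 and 109 CPM to 57.4, 60.2 and 57.4 CPM. Its log2 fold change was -0.86 ± 0.041 (SE; adjusted p = 4.32e-15, quasi-likelihood test of edgeR, Benjamini-Hochberg).

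Of the 50-base windows of the Zfp874a transcript, 16.3% occur elsewhere, nearly all of them in Zfp874b (15.8%). For the Zfp874b transcript the share was larger, at 31.4%, mostly in the unnamed gene model Gm48899 (17.3%) and in Zfp874a (13.6%). The counts of both genes were not whole in any culture, so both are uncertain, those of Zfp874b the more so. Of the 21 other zinc finger genes tested from the chromosome 13 list, 2 were called lower (Zfp874b, and Zfp87 at -0.21) and 1 higher, beside 18.9% lower and 16.4% higher among all tested genes, and their median log2 fold change was -0.04. DESeq2 called 1 lower and 1 higher, and the sign of Zfp87 turned on library totals alone. The higher one, Zfp457, was at 3.21, 4.74 and 3.60 CPM in DMSO and 8.50, 6.95 and 7.61 CPM with NUP-17d (log2 fold change 0.99 ± 0.14). Trim28, the corepressor of the class, was at 262 to 264 CPM in DMSO and 254 to 257 CPM with NUP-17d (-0.04 ± 0.033), which did not pass the test. Of the 10 tested genes nearest to Zfp874a, all of them zinc finger genes, Zfp874b and Zfp87 were the 2 called lower. Another of them, Zfp459 (-0.07), overlaps Zfp874a on the chromosome, and reads from the shared stretch cannot be told apart if strand was not used in counting.

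Upstream of their starts, Zfp874a and Zfp874b were identical at 76.2% of aligned positions. Their sequences (GRCm38.p6, RefSeq) are shown to let this be seen: Zfp874a is chr13:67451625-67451874 and Zfp874b chr13:67484254-67484503, both on the minus strand. The Zfp874b stretch lies inside the gene span given above, because the RefSeq start used is not the outer end of that span. Capitals mark TGACGTCA, the palindromic cAMP response sequence, found in both and in 1.79% of all 32851 windows.
Zfp874a: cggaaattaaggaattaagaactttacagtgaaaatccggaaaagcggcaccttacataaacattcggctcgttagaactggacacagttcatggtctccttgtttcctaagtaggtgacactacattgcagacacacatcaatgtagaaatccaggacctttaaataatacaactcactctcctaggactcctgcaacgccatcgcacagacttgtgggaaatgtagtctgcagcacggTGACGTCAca
Zfp874b: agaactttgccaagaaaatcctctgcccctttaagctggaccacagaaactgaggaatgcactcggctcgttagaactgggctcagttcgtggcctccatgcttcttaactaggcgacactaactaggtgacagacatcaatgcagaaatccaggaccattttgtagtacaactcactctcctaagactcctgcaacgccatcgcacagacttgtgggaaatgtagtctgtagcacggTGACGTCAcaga

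A FOXO-type sequence, GTAAACA, was also present in both windows, within 50 bases after the start, and in 3.65% of all windows. The other sequences searched were AGATAA (11.2% of all windows), which no member window held, CACGTG (7.15%), which no member window held, and CCNCNCCC, a KLF-type sequence present in Prokr1, Cachd1 and Evi5 and in 49.5% of all windows. All were searched on both strands. RefSeq promoter entries were found for 5 of the 6 genes, all but Rab30. The Evi5 window lies inside its gene span.

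Prokr1 had the largest fold change of the 6. It encodes a receptor for the prokineticins, small secreted proteins, and signals mainly through Gq, phospholipase C beta and calcium release. The gene stands at chr6:87578586-87590762 (GRCm38). Its level was 155, 140 and 157 CPM in the DMSO cultures and 47.1, 48.6 and 45.5 CPM with NUP-17d. The DMSO mean was 3.21 times the other by the fitted fold change, and the spread within either group was at most 6.11% of its mean. The log2 fold change was -1.68 ± 0.045 (SE), leaving 31.2% of the DMSO level. No 50-base window of its transcripts occurs in another gene, and its counts were whole in all 6 cultures. The authors counted 2 Prokr1 transcripts, and the mean transcript length they gave, which moves with the share of each, was 4082, 4079 and 4087 bases in DMSO and 4089, 4089 and 4083 bases with NUP-17d. These ranges overlapped.

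The ligands of Prokr1 were almost unread in these cultures. Prok1 had 0 or 1 count in each culture, Prok2 had 0 in DMSO and at most 1 with NUP-17d, and the sister receptor Prokr2 had 2 counts in 1 DMSO culture and 0 in all others. The accessory protein gene Mrap2 had 1.32 to 6.88 counts. Of the downstream partners (G protein alpha subunits, phospholipase C beta forms and the inositol trisphosphate receptors), 14 were tested, 5 were called higher and 1 lower, against 16.4% and 18.9% of all tested genes, with a median log2 fold change of 0.09. The 5 were Itpr2 (0.44), an inositol trisphosphate receptor of the endoplasmic reticulum, Plcb1 (0.28), Plcb3 (0.21), Plcb2 (0.16) and Gnaq (0.14), the Gq alpha subunit, and the 1 was Gnas (-0.13), the stimulatory G protein, whose sign turned on library totals alone. Plcb1 and Gnaq were also no longer called without DMSO replicate 1 (adjusted p = 0.090 and 0.13 by the edgeR test) or without DMSO replicate 3 (0.24 and 0.088), nor when NUP-17d replicate 1 or 2 was left out. With DESeq2, 2 were called higher and 1 lower. None of them moved by as much as 0.5 on the log2 scale.

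Cachd1 was the least abundant of the 6 per length, by the lengths the authors used. Its protein resembles the alpha2delta subunits that escort voltage-gated calcium channels to the surface, raises T-type calcium currents, and has also been tied to Lrp6 and frizzled receptors of the Wnt pathway. The gene stands at chr4:100776679-101003749 (GRCm38). Its level was 14.3, 13.8 and 13.5 CPM in DMSO and 4.16, 4.26 and 4.90 CPM with NUP-17d, from 252 to 262 counts and 92 to 107 counts. The groups were far apart, but the smaller counts gave it the largest error of the 6. The log2 fold change was -1.64 ± 0.097 (SE).

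Of the channel genes and partners of Cachd1, 15 were tested, with 3 called lower and 1 higher by edgeR and 2 lower and 1 higher by DESeq2, beside 18.9% lower and 16.4% higher among all tested genes. Their median log2 fold change was 0.09. Cacna1g, a T-type channel whose current Cachd1 can raise, went from 5.58, 3.90 and 4.30 CPM to 2.71, 1.84 and 2.38 CPM (log2 fold change -0.99 ± 0.17, adjusted p = 5.65e-05, quasi-likelihood test of edgeR, Benjamini-Hochberg). Its groups did not overlap. Cacna1c, an L-type channel, went from 7.02, 8.01 and 6.82 CPM to 4.57, 4.798 and 4.54 CPM (-0.65 ± 0.12), whose groups did not overlap either. Lrp6 was at -0.14, with a sign that turned on library totals alone, and its relative Lrp5, both Wnt coreceptors, was higher at 0.24. The T-type channel Cacna1h had 5 to 6 counts in DMSO and 10 to 13 with NUP-17d (0.91 ± 0.40), which did not pass the test except on library totals alone, and Cacna1i had 0 to 3 counts. Of the alpha2delta genes, Cacna2d1 (0.09 ± 0.29), Cacna2d2 (-0.25 ± 0.34) and Cacna2d4 (0.27 ± 0.29) had 8.82 to 32 counts per culture and did not pass, and Cacna2d3 had at most 2 counts.

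Rab30 encodes a small GTPase of the Golgi apparatus, where Rab proteins and tether proteins sort the cargo that leaves for the surface and the endosomes. The gene stands at chr7:92741637-92844535 (GRCm38). Its level was 14.98, 14.97 and 16.9 CPM in DMSO and 4.88, 5.60 and 5.82 CPM with NUP-17d. One DMSO culture, replicate 3, was above the others, and all 3 NUP-17d cultures were well below the lowest DMSO culture. The log2 fold change was -1.52 ± 0.093 (SE), leaving 34.8% of the DMSO level.

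Of the 47 other Rab genes tested, 6 were called lower and 11 higher, beside 18.9% lower and 16.4% higher among all tested genes, and their median log2 fold change was 0.05. Rab39 was the lowest of those called (-0.92 ± 0.26), at 1.34 to 1.49 CPM in DMSO and 0.550 to 0.950 CPM with NUP-17d. It was named after its value was seen. Rab18 (-0.30), a Rab of lipid droplets and the endoplasmic reticulum, Rab10 (-0.27) and the early endosomal Rab5a (-0.23, whose sign turned on library totals alone) were lower, and Rab40c (0.45) was the highest of those called. On library totals alone Rab18 and Rab10 were no longer called. Of the 21 Golgi tether genes tested, 1 was lower, Uso1 (-0.19, whose sign turned on library totals alone), and 3 were higher, Golga4 (0.29), Golgb1 (0.26) and Cog6 (0.22), against the same background of 18.9% lower and 16.4% higher.

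Evi5 had the smallest fold change of the 6, on a level with Zfp874a. Its TBC domain acts on Rab11, the Rab of recycling endosomes, and Evi5 is also known at the centrosome and midbody of dividing cells, where it protects Fbxo5 (Emi1), an inhibitor of the anaphase-promoting complex. The gene stands at chr5:107744795-107875107 (GRCm38). Its level was 203, 196 and 203 CPM in DMSO and 101, 95.5 and 96.7 CPM with NUP-17d. Within groups the SD was at most 2.71% of the mean. The log2 fold change was -1.04 ± 0.036 (SE), leaving 48.7% of the DMSO level. Of the 50-base windows of its transcript, 6.22% occur elsewhere, mostly in the unnamed gene model Gm16072, and its counts were whole in all 6 cultures.

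Evi5l, the closest relative of Evi5, moved the other way, from 12.5, 11.1 and 10.1 CPM to 14.1, 14.3 and 14.7 CPM. Its log2 fold change was 0.36 ± 0.080 (SE; adjusted p = 9.36e-04, quasi-likelihood test of edgeR, Benjamini-Hochberg). Of the 38 other TBC genes tested, 14 were called higher and 2 lower by edgeR, the median log2 fold change being 0.13, and 7 higher and 2 lower by DESeq2. The background over all tested genes was 16.4% higher and 18.9% lower by edgeR. The 2 lower were Tbc1d31 (-0.37), a centrosomal protein, and Tbc1d15 (-0.15, named after its value was seen, and with a sign that turned on library totals alone), and Tbc1d16 (0.58) was the highest of those called. The Rab genes whose products Evi5 is known or thought to act on did not pass the test, though all 3 were called higher on library totals alone: Rab11a was at -0.09 ± 0.042, Rab11b at 0.00 ± 0.035 and Rab35 at 0.03 ± 0.040, at 67.9 to 76.0, 181 to 191 and 70.2 to 74.9 CPM over both groups.

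The remaining 9 genes of the list of Evi5 partners, all mitotic, were tested, and 8 of them, all but Aurkb, were called lower and 0 higher by edgeR (0 higher at an unadjusted p under 0.05 and by DESeq2, and 7 lower by DESeq2), against 18.9% lower among all tested genes. On library totals alone 1 was lower and 5 were higher. The median log2 fold change of the 9 was -0.18, and 0.0893 on library totals. Incenp, a subunit of the chromosomal passenger complex, had -0.47 ± 0.038 (SE) and Fzr1, an activator of the anaphase-promoting complex, -0.30 ± 0.039. Fbxo5 was near the threshold, at -0.11 ± 0.044 (adjusted p = 0.048, quasi-likelihood test of edgeR, Benjamini-Hochberg), but DESeq2 did not call it, and on library totals alone its sign turned.

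**Figure D3:**
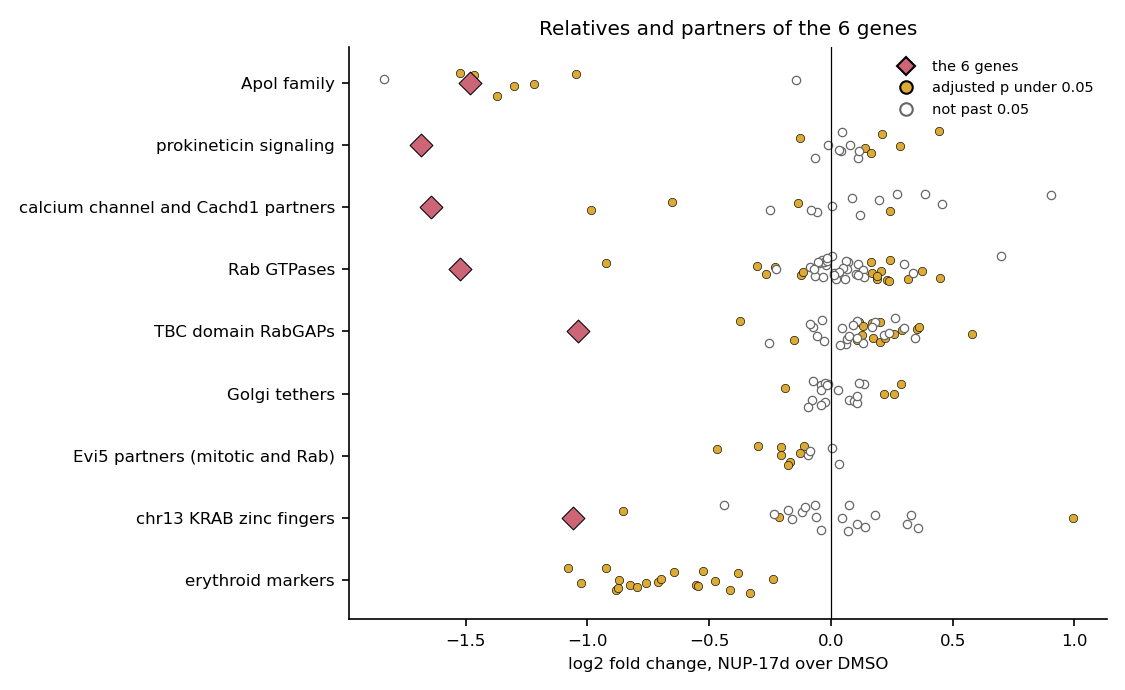
Log2 fold change (NUP-17d over DMSO, x axis) of the tested genes of each list, 1 row per list with points spread vertically at random. Red diamonds are the 6 genes, yellow circles other genes with an adjusted p under 0.05 and open circles those that did not pass. Apol11b lies within the range of its family (median of the others -1.34). Prokr1, Cachd1, Rab30, Evi5 and Zfp874a each lie left of every other tested gene in their rows. The 6 genes were chosen by their fall, so this position is no result about them.

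Per length, the level of the 6 genes in DMSO ran in the order Apol11b, Zfp874a, Prokr1, Evi5, Rab30 and Cachd1. In TMM-normalized CPM per kilobase of transcript the means were 338 ± 13.0 for Apol11b, 84.7 ± 1.81 for Zfp874a, 37.0 ± 2.23 for Prokr1, 34.3 ± 0.68 for Evi5, 7.78 ± 0.56 for Rab30 and 2.78 ± 0.073 for Cachd1 (SD, n = 3). Only Prokr1 and Evi5 overlapped. With NUP-17d the values were 121 ± 4.08 for Apol11b, 40.7 ± 0.77 for Zfp874a, 16.7 ± 0.45 for Evi5, 11.5 ± 0.37 for Prokr1, 2.71 ± 0.24 for Rab30 and 0.892 ± 0.081 for Cachd1, and no neighbors overlapped, Evi5 now standing above Prokr1. Among all tested genes, the DMSO level of Apol11b was above 98.5% and that of Cachd1 above 27.3%. The lengths are those the authors used. For Rab30 they used 2007 bases where the matching GENCODE transcript has a length of 9456, and for Cachd1 4981 bases where it has 5765. The levels of these genes per length, and their order, depend on that choice.

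Of the 12306 tested genes, 0.642% had a log2 fold change of -1 or lower, and all 6 genes were chosen to be among them. Outside the set, 69 other genes fell by more than Evi5, 28 of them with 100 or more counts on average, of which 27 had nonoverlapping groups. Among these 28 were 4 Apol genes (Apol10a, Apol8, Apol11a and Apol7c), the histone genes Hist3h2a (-1.67), Hist1h4i (-1.60) and Hist1h2bc (-1.11), the globin genes Hbq1a (-1.24) and Hba-a2 (-1.08), and Ackr3 (-1.10), an atypical chemokine receptor. Also among them were Ankrd61, Zfp750, Fosb, Tnk1, Trim59, Cadm3, Cpeb3, Snx22, Jchain, Samd11, Ypel4, Ppm1e, Gadd45a, Slc23a1, Acmsd and Evi2. Just outside, after Evi5 at -1.04, came Ccdc92b (-1.03) and Trim58 (-1.03), the latter a ubiquitin ligase of late erythroblasts.

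**Figure D4:**
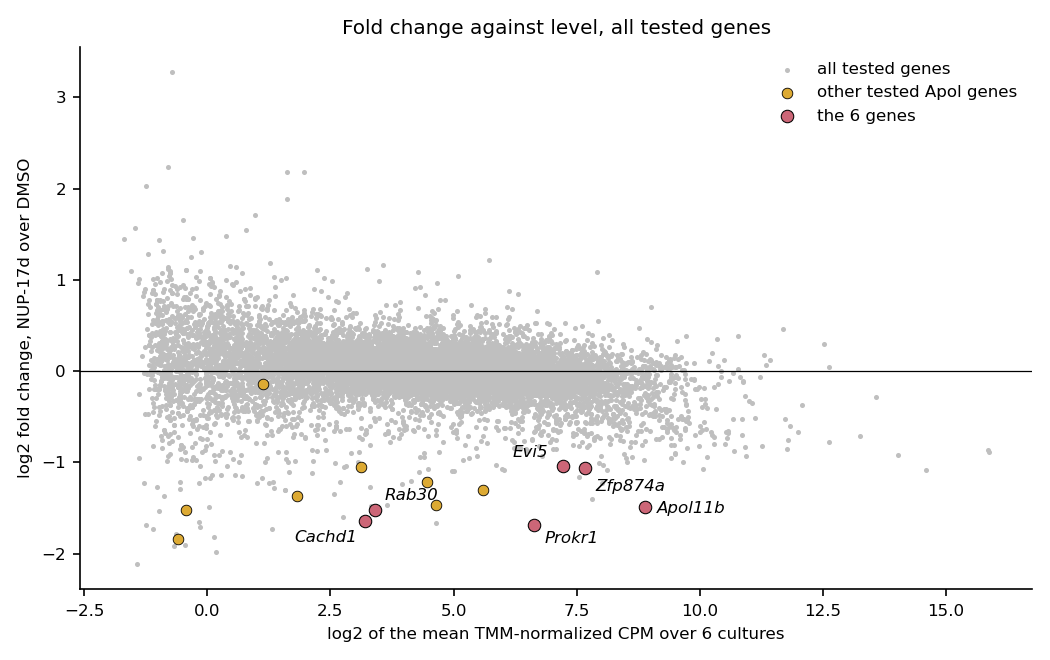
Log2 fold change (NUP-17d over DMSO, y axis) against the log2 of the mean TMM-normalized CPM over the 6 cultures (x axis), 1 point for each of 12306 tested genes. The 6 genes (red) lie along the lower edge from low (Cachd1, Rab30) to high levels (Apol11b at -1.48), with most of the other tested Apol genes (yellow) beside them.

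The 10 tested genes nearest to each member, 5 on either side, were examined for changes in the same direction, a choice made after the data had been seen. Around Evi5 and around Cachd1, 0 of 10 were called in either direction by edgeR or by DESeq2, against 35.3% of all tested genes, and at an unadjusted p under 0.05 there were 3 lower near Evi5 and 2 higher near Cachd1. Around Rab30, 2 were lower and 1 higher, the 2 being its direct neighbors Pcf11 (-0.23) and Ddias (-0.19), both of which turned sign on library totals alone (0.0326 and 0.0745). Around Prokr1, 4 were lower and 2 higher, the neighbors at its sides being Arhgap25 (-0.25) and Aplf (-0.35). Of these 4, Arhgap25 (0.0204), Rab43 (0.15) and Cnbp (0.17) turned sign on library totals alone. Around Apol11b, 5 were lower, all of them Apol genes, and around Zfp874a 2 were lower. The neighbors of Prokr1, Rab30, Evi5 and Cachd1 had median log2 fold changes between -0.05 and 0.03, beside 0.01 for all tested genes. A comparison with the falls of the members themselves says nothing, because the members were chosen by those falls.

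For each member the genes with the most similar pattern over the 6 cultures were found by Pearson's r of log2 CPM among 9763 genes that averaged 100 counts or more. They included Arl4a for Apol11b (r = 0.9997), Ackr3 and Ogt for Prokr1 (0.9994 for both), Fbxw2 and Ypel5 for Cachd1 (0.9999 and 0.9997), Clk1 and Tmc6 for Rab30 (0.9997 and 0.9992), Ubxn7 and Trim59 for Evi5 (0.9998 for both), and Gpcpd1 and Eif2s1 for Zfp874a (0.9996 and 0.9995). With 2 groups of 3 cultures, r reflects the gap between the groups, and 132 (Rab30) to 349 genes (Apol11b) were above 0.99. The similar genes did not fall equally: Ogt had a log2 fold change of -0.37 beside -1.68 for Prokr1, and Arl4a had -0.78 beside -1.48 for Apol11b.

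**Figure D5:**
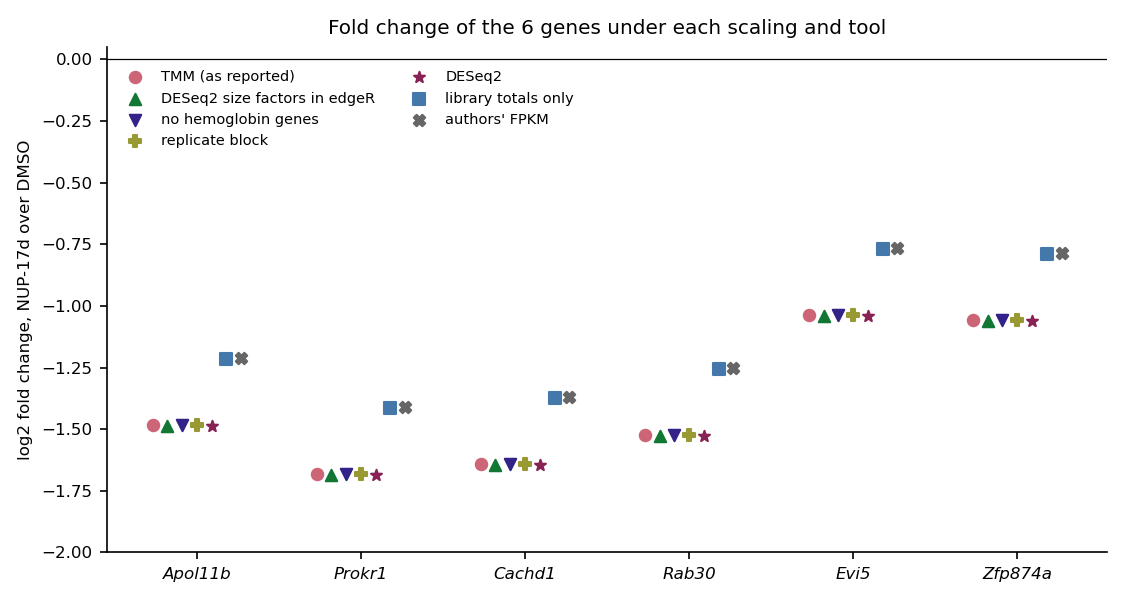
Log2 fold change (NUP-17d over DMSO, y axis) of the 6 genes under 7 ways of scaling or testing, 1 symbol per setting. Without a correction for composition (library totals only and the authors' FPKM) all values lie closer to 0, from -1.41 for Prokr1 to -0.77 for Evi5, and the order of the genes is kept.

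How far the genes fell depended on the composition correction. On library totals alone the log2 fold change was -1.22 for Apol11b, -1.41 for Prokr1, -1.38 for Cachd1, -1.26 for Rab30, -0.77 for Evi5 and -0.79 for Zfp874a, each being smaller by the same shift that moved the median of all genes. All 6 were lower with NUP-17d under every scaling and with each culture left out. In expected counts with no scaling, Evi5 went from 3668, 3714 and 3771 to 2224, 2130 and 2110, and Apol11b from 12678, 12665 and 13415 to 5431, 5415 and 5640.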

How the data were processed

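Total RNA from 3 DMSO and 3 NUP-17d cultures, taken at 48 hours, was oligo-dT enriched, primed with random hexamers and sequenced as single 50-base reads on the DNBseq platform per the labels. Replicates carry the labels' numbers. The authors deposited 1 table per culture with expected counts (estimated reads per gene, not normalized), FPKM (counts scaled by length and library total, with no composition correction) and a mean transcript length. The submitters' notes name mm10; the aligner, the counter and whether strand was used in counting are not given in the sources used here. The study's methods describe a stranded Illumina library instead, and the labels were followed. A gene with no row in a culture was taken as 0. Expected counts were rounded, and between 27.8% and 28.5% of them were not whole.

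The main test was edgeR 4.0.16 (R 4.3.3) with filterByExpr, TMM and the quasi-likelihood test on all 6 cultures, with Benjamini-Hochberg adjustment over 12306 genes and a threshold of 0.05. No covariate was used. The common biological coefficient of variation was 2.95%. Cultures of a group differed by more than sampling noise (chi-square per degree of freedom 1.83 to 4.54). The fit was tested on simulated data. Alternatives were DESeq2 1.42.0, its size factors in edgeR, library totals only, no filter, no hemoglobin genes, a replicate block, each culture left out, and for the 6 genes the authors' FPKM.

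The 6 genes and all lists were chosen with earlier results of these data known. Named genes were the 6, their closest relatives and partners, up to 5 called genes with the lowest p per list, the genes ranked beside the set and the 2 most similar genes each. Windows of 50 bases were compared with GENCODE vM21 transcripts on both strands. Promoters came from RefSeq and were aligned globally with Biopython 1.88. No exact test of 3 against 3 cultures can go below p = 0.1. The dose is not in the labels and is not given here. Some genes that the naming rule covers are not reported here.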

Additional observations from a re-analysis of the deposited data

How the results depend on the processing

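The direction of all 6 genes held under every alternative. Leaving out 1 culture at a time gave log2 fold changes of -1.51 to -1.46 for Apol11b, -1.73 to -1.65 for Prokr1, -1.72 to -1.60 for Cachd1, -1.57 to -1.45 for Rab30, -1.06 to -1.02 for Evi5 and -1.07 to -1.04 for Zfp874a. Values without a composition correction moved by more than the spread between cultures. On library totals only they were -1.22 (Apol11b), -1.41 (Prokr1), -1.38 (Cachd1), -1.26 (Rab30), -0.77 (Evi5) and -0.79 (Zfp874a), and from the authors' FPKM -1.21 (Apol11b), -1.41 (Prokr1), -1.37 (Cachd1), -1.25 (Rab30), -0.77 (Evi5) and -0.79 (Zfp874a).

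Calls over all genes and lists also depended on the composition correction. On library totals only, 657 of all genes were lower and 8458 higher, so that 7.21% of calls were lower against 53.5% with TMM, and the median of all genes moved to 0.28. There, 0 prokineticin genes were lower and 14 higher, 6 channel genes were higher, 1 Rab gene was lower and 38 were higher, 1 TBC gene was lower and 34 were higher, 0 Golgi tethers were lower and 20 higher, 1 of the 12 Evi5 partners (9 mitotic genes with Rab11a, Rab11b and Rab35) was lower and 8 were higher, and 1 zinc finger gene of chromosome 13 was lower and 9 were higher. Many genes with small fold changes turned sign on library totals, among them the neighbors Pcf11, Ddias and Arhgap25 and the uncalled Apol7b, Cacna2d2 and Zfp459, as well as Rab11a (0.18), Fbxo5 (0.15), Tbc1d15 (0.12), Trim28 (0.23), Gnas (0.14), Lrp6 (0.13), Rab5a (0.0387), Uso1 (0.0780) and Zfp87 (0.0537). With DESeq2, 1276 of all genes were called higher, 2 prokineticin and 7 TBC genes were higher, and 1 zinc finger gene was lower.

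With 1 culture left out, 2035 to 2181 of all genes were lower and 1642 to 1827 higher, with 3 to 5 prokineticin, 1 to 2 channel, 7 to 11 Rab and 9 to 12 TBC genes called higher. The counts moved by over 1.5 times for prokineticin genes (3 without DMSO replicate 1 or 3 or NUP-17d replicate 1 or 2), channel genes (2 without NUP-17d replicate 2 or 3), Rab genes (7 without DMSO replicate 2) and TBC genes (9 without NUP-17d replicate 1). Calls of single genes were lost for Fbxo5 without DMSO replicate 2 or 3 or NUP-17d replicate 2 or 3 (edgeR adjusted p 0.11 to 0.18), for Lrp6 without DMSO replicate 1 or 2 or NUP-17d replicate 2 or 3 (0.051 to 0.13) and for Zfp87 without DMSO replicate 1 (0.097). Marker sums on library totals had log2 ratios of -0.61 (erythroid), 0.31 (neutrophil), 0.36 (macrophage), 0.0732 (mast cell and basophil, turned from -0.19), 0.44 (megakaryocyte), 0.35 (stem and progenitor) and 0.0663 (lymphoid, turned from -0.20), and without hemoglobin genes the erythroid ratio was -0.69. Same-numbered cultures deviated together only weakly (correlations 0.0888, 0.0125 and 0.0645), beside -0.104 to 0.0318 for cultures of different number. Only NUP-17d replicate 2 correlated better with another number, DMSO replicate 3, than with its own. With the replicate block, 2422 genes were called lower and 2121 higher, and the log2 fold change was -1.48 for Apol11b and -1.68 for Prokr1. Apol7e, at 0 in 3 cultures, passed the threshold with the block (adjusted p = 0.042, quasi-likelihood test of edgeR, Benjamini-Hochberg) and without DMSO replicate 1 (0.0028) or NUP-17d replicate 1 (2.68e-04).

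Mean counts of 178 for Cachd1 and 205 for Rab30 limited their precision, and those of 14.4 for Apol7a, 44.3 for Apol7b and 12.9 for Apol7e allowed little.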
